A study of Mus musculus with 4 samples.

Results

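The genes described here encode the metalloproteases of the MMP, ADAM and ADAMTS families, the ADAMTS-like proteins and the TIMP inhibitors. They were chosen by symbol alone, as every gene on the array whose symbol begins with Mmp, Adam or Adamts and continues the family's naming, together with Timp1 to Timp4. There were 83 such genes among the 20660 named genes of the array. Transcripts were measured in mouse EB5 embryonic stem (ES) cells into which a Hoxb6-Venus reporter had been introduced. Both fractions came from cells differentiated for 6 days on OP9 cells, a mouse stromal feeder line, then sorted by antibody staining of Flk-1, a receptor of VEGF and the product of Kdr. The Flk-1+ Hoxb6-Venus-positive fraction (2 arrays) was set against the Flk-1+ Hoxb6-Venus-negative fraction (2 arrays). All 4 samples therefore carried the reporter and were Flk-1+. The labels do not say whether the reporter line was 1 clone, or whether the replicates came from separate cultures, so the errors measure only the spread between these samples. OP9 cells are murine, so RNA from feeder cells that passed the sort would be read by the same probes.

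MMPs are zinc proteases of the extracellular matrix, secreted or anchored in the plasma membrane, that cut collagens, gelatin and proteoglycans. ADAMs are membrane proteins, of which some cut growth factors, receptors and Notch at the cell surface (shedding) and others lack the zinc-binding motif and act in adhesion. ADAMTS proteases are secreted and process procollagens and large proteoglycans, ADAMTS-like proteins keep the ancillary domains without the protease, and TIMPs inhibit MMPs and, for some members, ADAMs and ADAMTSs. In developing vessels and early mesoderm these enzymes are known for clearing matrix, releasing Notch and growth factor signals and remodelling versican.

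Levels are given as log2 of the processed fluorescence signal relative to the 75th percentile of the same array, so that 0 is the level of that percentile and 1 unit is a doubling. The log2 difference is Venus-positive minus Venus-negative, with the moderated standard error (SE) from limma. Adjusted p values are limma's, corrected by Benjamini-Hochberg over all 23545 features tested, with a threshold of 0.05. The share of spots well above background was 50.7% to 53.0% on the 4 arrays, and the number of arrays limits the precision. The 4 arrays were on 1 slide with 1 scan. The Venus-positive arrays lay in a different column of the slide from the Venus-negative arrays, so column position and fraction cannot be told apart. The row of the slide coincided with the replicate number.

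The genes of the sort were read first. Hoxb6 had 2.00 and 2.24 in Venus-positive cells, against 1.23 and 0.98 in Venus-negative cells, a log2 difference of 1.01 ± 0.16 (SE, adjusted p = 0.0716). Kdr had 6.06 and 6.08 in Venus-positive cells, against 5.72 and 5.55 in Venus-negative cells, a difference of 0.44 ± 0.11 (adjusted p = 0.138). For both genes the 2 Venus-positive arrays lay above the 2 Venus-negative arrays, and neither passed the threshold. For Hoxb6 this was the direction of the labels. Both fractions were labelled Flk-1+, so the labels give no direction for Kdr. Cell type markers moved with the fractions. All 10 endothelial markers had positive differences, 3 of them past the threshold, and their summed signal, in units of the 75th percentile, was 389 and 475 in Venus-positive cells and 186 and 235 in Venus-negative cells. All 10 markers of primitive streak and nascent mesoderm had negative differences, 7 past the threshold, with sums of 15.8 and 11.3 in Venus-positive cells and 60.8 and 48.6 in Venus-negative cells. Of the 15 OP9, fibroblast and adipocyte markers, 14 were tested and none passed. Their sums were 66.3 and 49.5 in Venus-positive cells and 79.4 and 75.5 in Venus-negative cells. Col1a2, Fabp4, Adipoq, Lum and Pparg were well above background on all 4 arrays, and Postn only on the Venus-positive ones. Dcn was well above background only in replicate 1 of each fraction, with -2.58 in Venus-positive and -2.14 in Venus-negative cells. Whether the RNA of these markers came from feeder cells was not tested. Pluripotency markers summed to 13.6 and 8.87 in Venus-positive cells and 64.3 and 38.3 in Venus-negative cells, with 0 of 6 called. Dppa5a, the brightest of them, gave most of each sum and differed by -2.47, and Pou5f1 differed by -2.385. Esrrb, Zfp42, Sox2 and Nanog differed by -0.73, -0.32, -0.23 and 0.23. Of 6 cardiac markers 5 had negative differences and 1 (Myl7) was called lower. Of 4 tested endoderm markers 3 had negative differences, and 2 of these (Krt8 and Krt19) were called lower. The remaining one, Sox17, was higher on both Venus-positive arrays, with a difference of 1.35 ± 0.24 (adjusted p = 0.0872). Of 9 tested blood markers 0 were called, with sums of 49.9 and 59.2 in Venus-positive cells and 54.3 and 112 in Venus-negative cells, and Ptprc was well above background on no array. All calls among markers were lost when any 1 array was left out. In sorted populations fewer cells of a type and less RNA per cell cannot be told apart, and the part of these markers in the results below was not tested.

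Of the 83 genes, 42 could be tested, because their probe exceeded background well in both replicates of 1 fraction or more. Of these, 37 were well above background on all 4 arrays. The 9 ADAMs grouped here as carrying the zinc-binding motif were the most widely measured class, with 8 tested. Beside them, 3 of 4 TIMPs and 13 of 19 ADAMTS proteases were tested. The 17 other ADAMs are a separate group not divided by this motif, so the groups with and without it are not complete. The secreted MMPs were the least widely measured, with 3 of 15 tested, namely Mmp2, Mmp9 and Mmp11. The tested set also held 4 of 7 membrane-anchored MMPs, 4 of 8 ADAMs without the motif, 5 of 17 other ADAMs and 2 of 4 ADAMTS-like genes. Among the 41 genes not tested, 33 were well above background on no array. They included the collagenases Mmp8 and Mmp13, the stromelysins Mmp3 and Mmp10, the macrophage elastase Mmp12, matrilysin Mmp7, the von Willebrand factor-cleaving protease Adamts13 and the inhibitor Timp4. Another 6 were well above background on 1 array (Adam2, Adam21, Adamts6, Adamtsl1, Mmp1b and Mmp25) and 2 on 1 array of each fraction (Adamts16 and Mmp19). For the 33 genes only an upper bound on the level can be stated.

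**Figure D1:**
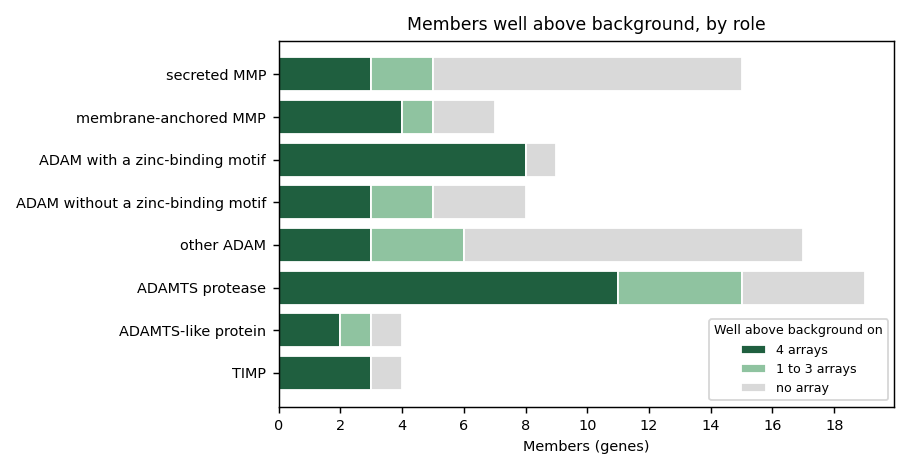
Number of genes in each class (horizontal axis) whose probe was well above background on 4 arrays, on 1 to 3 arrays or on no array. Of 15 secreted MMP genes 3 were measured on all 4 arrays, while 8 of 9 genes of the ADAM group with a zinc-binding motif were. The 17 other ADAMs were not divided by this motif.

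The untested genes lay partly in clusters of neighbours. In the RefSeq annotation 10 Mmp genes follow each other on chromosome 9 (Mmp13, Mmp12, Mmp1b, Mmp3, Mmp1a, Mmp10, Mmp8, Mmp27, Mmp20 and Mmp7). Of these 9 had a probe, 0 could be tested and 8 were well above background on no array. Mmp1b had -6.96 and -7.06 in Venus-positive cells, against -2.93 and -6.76 in Venus-negative cells, so a single Venus-negative array stood apart from the other 3. On chromosome 8, 0 of 4 neighbours (Adam24, Adam25, Adam20 and Adam39) and 1 of 4 (Adam26b, beside Adam26a, Adam34l and Adam34) were tested. In contrast 3 of 5 were tested in the run of Adam18, Adam3, Adam5, Adam32 and Adam9. Whether near-identical copies such as Adam26a and Adam26b, Adam6a and Adam6b or Adam1a and Adam1b share probe signal was not examined.

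Promoters of measured and unmeasured genes were compared by their composition. The windows, from 250 bases before to 50 bases after the transcription start, are from RefSeq in build GRCm38.p6, which holds 1 for 52 of the 83 genes (26 tested, 26 not). From the unmeasured chromosome 9 cluster 3 promoters are shown because they carry the AP-1 motif TGANTCA and the TATA motif TATAAA, both in capitals, a short way upstream of the start.
Mmp13 (chr9:7272264-7272563, + strand): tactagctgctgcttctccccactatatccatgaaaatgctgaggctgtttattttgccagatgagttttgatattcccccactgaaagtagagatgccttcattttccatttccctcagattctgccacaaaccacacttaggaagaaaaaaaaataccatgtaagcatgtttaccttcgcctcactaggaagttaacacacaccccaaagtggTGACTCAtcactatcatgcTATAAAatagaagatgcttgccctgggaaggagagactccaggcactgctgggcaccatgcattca
Mmp3 (chr9:7445572-7445871, + strand): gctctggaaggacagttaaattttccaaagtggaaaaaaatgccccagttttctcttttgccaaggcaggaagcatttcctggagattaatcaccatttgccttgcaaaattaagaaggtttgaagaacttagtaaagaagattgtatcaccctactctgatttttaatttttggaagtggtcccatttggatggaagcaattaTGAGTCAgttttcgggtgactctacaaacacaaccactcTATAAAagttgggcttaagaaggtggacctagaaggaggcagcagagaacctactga
Mmp10 (chr9:7502092-7502391, + strand): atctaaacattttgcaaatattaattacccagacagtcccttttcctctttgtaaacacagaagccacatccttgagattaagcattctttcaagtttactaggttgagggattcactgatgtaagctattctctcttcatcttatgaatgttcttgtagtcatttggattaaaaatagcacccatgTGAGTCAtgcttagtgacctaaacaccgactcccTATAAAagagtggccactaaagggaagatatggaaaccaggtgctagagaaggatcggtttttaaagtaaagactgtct
The AP-1 motif began 35 bases upstream of the start in Mmp13, 46 in Mmp3 and 63 in Mmp10. It was also found in Mmp1a (73 bases upstream), Mmp1b (93), Mmp7 (63) and Mmp20 (95), 7 genes of the cluster in all, and each of the 7 also held TATAAA. Mmp8 and Mmp12 of the cluster have a window without the AP-1 motif. The letter N in the motif stands for any base. It was A in Mmp20, and in Adam20 and Adam25 outside the cluster. For contrast 4 promoters of measured genes are shown, with GC boxes (GGGCGG), ETS motifs (CCGGAA) and TATA motifs in capitals. They belong to the sheddases Adam10 and Adam15, the membrane collagenase Mmp14 and the microfibril-binding protein Adamtsl2.
Adam15 (chr3:89349979-89350278, - strand): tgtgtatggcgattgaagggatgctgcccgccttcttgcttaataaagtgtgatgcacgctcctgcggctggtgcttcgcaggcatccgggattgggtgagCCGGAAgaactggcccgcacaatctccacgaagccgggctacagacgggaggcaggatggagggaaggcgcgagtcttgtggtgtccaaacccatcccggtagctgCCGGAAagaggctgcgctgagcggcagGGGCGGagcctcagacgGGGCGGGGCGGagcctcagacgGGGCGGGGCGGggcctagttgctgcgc
Adam10 (chr9:70678732-70679031, + strand): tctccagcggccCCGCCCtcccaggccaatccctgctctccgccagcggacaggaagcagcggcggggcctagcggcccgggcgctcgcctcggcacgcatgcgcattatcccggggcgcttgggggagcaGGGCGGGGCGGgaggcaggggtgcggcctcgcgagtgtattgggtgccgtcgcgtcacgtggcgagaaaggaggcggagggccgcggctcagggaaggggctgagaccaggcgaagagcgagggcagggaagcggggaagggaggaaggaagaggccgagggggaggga
Mmp14 (chr14:54431348-54431647, + strand): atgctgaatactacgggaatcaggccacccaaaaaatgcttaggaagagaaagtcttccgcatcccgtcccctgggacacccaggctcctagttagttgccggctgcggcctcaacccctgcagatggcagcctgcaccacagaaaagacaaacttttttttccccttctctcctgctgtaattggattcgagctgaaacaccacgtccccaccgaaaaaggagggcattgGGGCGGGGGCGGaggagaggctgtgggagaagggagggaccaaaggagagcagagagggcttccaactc
Adamtsl2 (chr2:27079129-27079428, + strand): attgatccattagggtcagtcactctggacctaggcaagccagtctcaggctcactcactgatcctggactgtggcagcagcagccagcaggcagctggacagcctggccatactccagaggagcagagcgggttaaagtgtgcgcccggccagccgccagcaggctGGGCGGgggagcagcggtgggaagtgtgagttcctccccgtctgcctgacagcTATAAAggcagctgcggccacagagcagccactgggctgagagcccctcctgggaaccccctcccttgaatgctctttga
Motifs were searched on both strands, so that a GC box can read CCGCCC, and overlapping matches are joined in the capitals. Among the 26 untested genes with a window 11 promoters (42.31%) held the AP-1 motif, while 0 of the 26 tested genes with a window did (0.0%). Most of the 11 belong to the chromosome 9 cluster, and Adam20 and Adam25 are neighbours with nearly the same letters, so the 11 are not independent. Mmp2 and Mmp9 are tested genes without a window, so the count does not cover them. The AP-1 share was 7.93% of all 27025 promoters in the table, 4.87% of the tested genes of the array and 11.91% of the untested. TATAAA was found in 12 untested promoters (46.15%) and in 3 tested ones (11.54%, Adam6b, Adamts1 and Adamtsl2), against 14.16% of all promoters, 7.74% of the tested genes of the array and 23.04% of the untested. GC boxes were in 18 tested promoters (69.23%) and 6 untested ones (23.08%), close to the 62.69% of tested and 20.4% of untested genes of the array. ETS motifs were in 3 tested promoters (11.54%) and 0 untested ones, fewer than the 26.17% of tested and 6.56% of untested genes of the array. The median number of CpG dinucleotides was 20.5 in tested and 1.0 in untested promoters, and among all genes of the array 20.0 in tested and 3.0 in untested ones. The contrasts in CpG and GC boxes are therefore also those of the array as a whole. These are matches of letters in 300 bases, counted without a test.

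**Figure D2:**
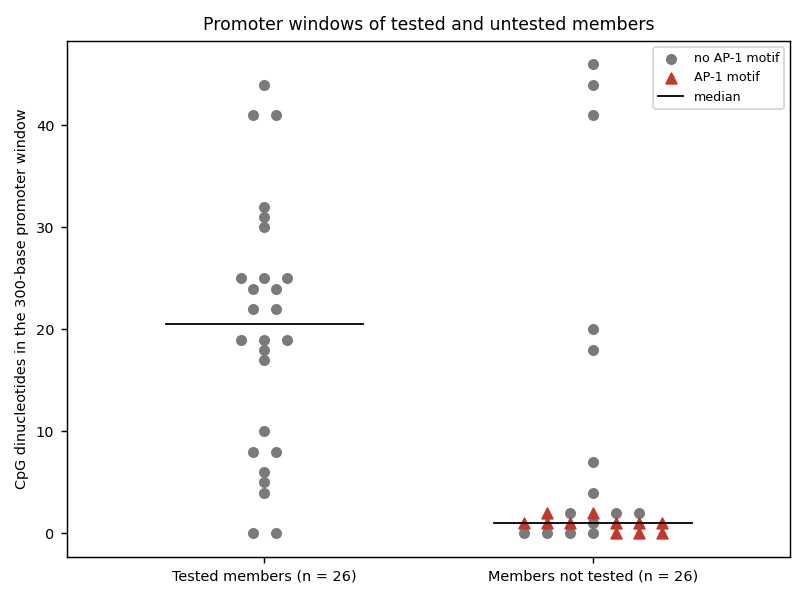
CpG dinucleotides in the 300-base promoter window (vertical axis) of 26 tested and 26 untested genes, with triangles for windows that hold the AP-1 motif and lines for the medians. The tested genes have a median of 20.5 and no AP-1 match, and the untested genes a median of 1.0 and 11 matches.

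Among the 42 tested genes, 0 passed the threshold in either direction, where 2.14% of all features did (0.777% higher and 1.36% lower in Venus-positive cells). That split over all features was 183 higher and 320 lower, and with median centring it was 387 higher and 420 lower. At an unadjusted p under 0.05 limma had 7 genes higher and 7 lower, 16.7% each, beside 12.3% and 11.4% of all features. The lowest adjusted p was that of Adam19, 0.0571. Both Venus-positive arrays lay above both Venus-negative arrays for 11 genes (26.2%), and below them for 9 (21.4%), beside 29.1% and 28.4% of all features. The shares of separated genes were thus no higher than those of the background. A log2 difference of at least 1 was seen in 2 genes upward (4.76%) and 4 downward (9.52%), beside 3.77% and 4.26% of all features. Of the 4, Adamts18 entered the test only through the Venus-negative arrays, where it was higher. With all 4 arrays required above background, 37 genes remained, with 7 higher and 6 lower at limma's unadjusted p under 0.05. The difference exceeded both gaps between replicates in 18 genes, and in 46.1% of all features. The median difference was 0.07, beside 0.00 over all features, and the range was -3.20 to 1.23. With other settings, up to 2 genes passed in each direction, and these are named below.

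**Figure D3:**
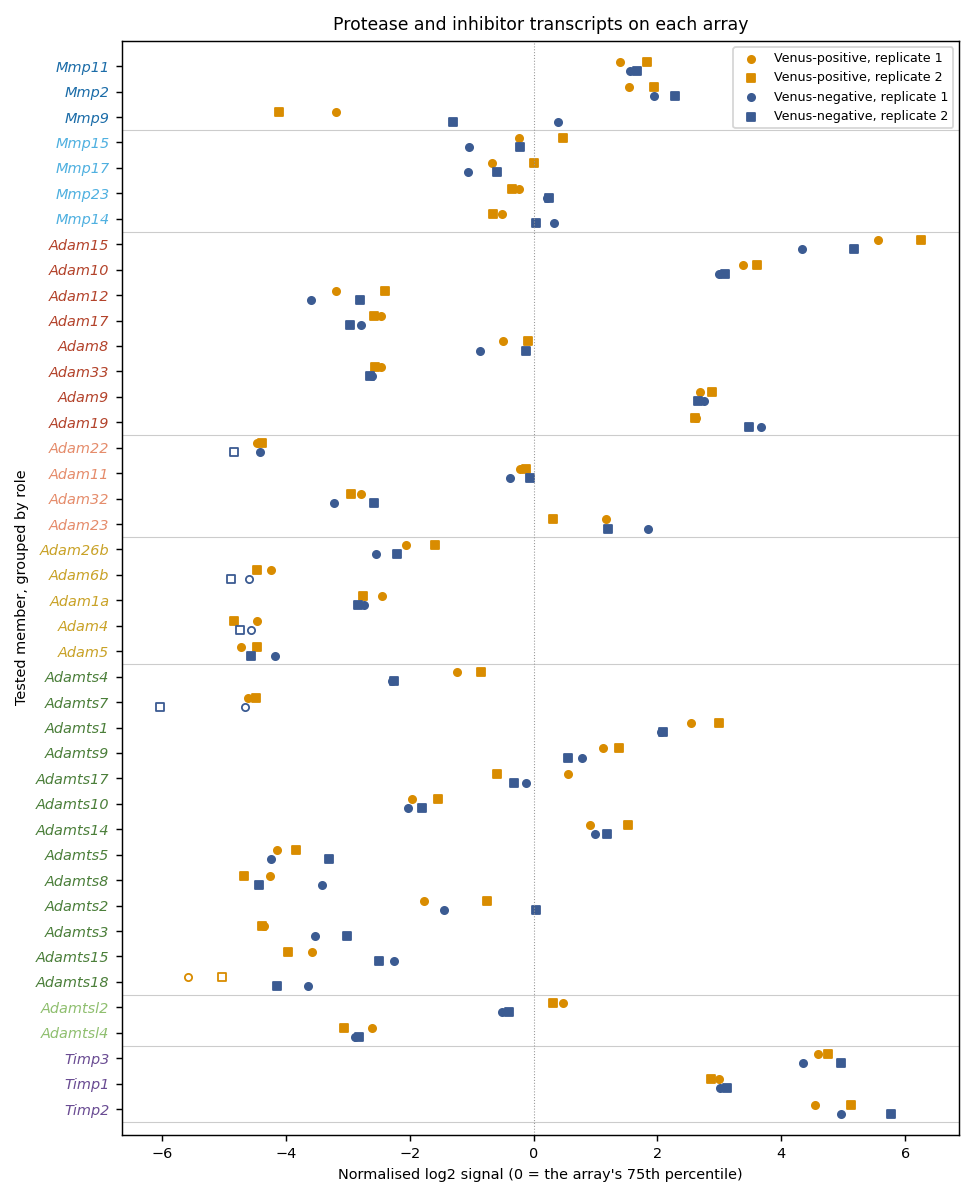
Normalised log2 signal (horizontal axis, 0 is the array's 75th percentile) of the 42 tested genes on each array, with orange for Venus-positive, blue for Venus-negative and open symbols for probes not well above background. The largest separations are those of Mmp9, Adamts15, Adamts18 and Adamts4, and replicates of a fraction often lie as far apart as the fractions.

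Of the secreted MMPs, the gelatinases cut denatured collagen and basement membrane collagen. Mmp9 (gelatinase B, chromosome 2) had -3.20 and -4.11 in Venus-positive cells, against 0.40 and -1.31 in Venus-negative cells. The 2 Venus-negative arrays were both higher but lay 1.71 apart. The log2 difference of -3.20 ± 0.71 was a 9.19-fold lower mean in Venus-positive cells, with an adjusted p of 0.117. It was -2.35 when Venus-negative replicate 1 was left out, -4.05 when replicate 2 of that fraction was, and -1.98 with the model-based background correction (normexp). Mmp2 (gelatinase A, chromosome 8), whose proenzyme is activated by Mmp14 together with Timp2, had 1.55 and 1.95 in Venus-positive cells, against 1.94 and 2.29 in Venus-negative cells. The fractions of Mmp2 overlapped, and the difference was -0.37 ± 0.21 (adjusted p = 0.378). Mmp11 (stromelysin-3) differed by 0.00 ± 0.19, and its second probe by 0.01.

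Mmp14, the membrane-anchored collagenase MT1-MMP (chromosome 14), had -0.51 and -0.65 in Venus-positive cells, against 0.33 and 0.03 in Venus-negative cells. Both Venus-positive arrays were lower, with a log2 difference of -0.76 ± 0.15, or 1.70-fold (adjusted p = 0.103). Mmp23, a type II membrane MMP, had -0.23 and -0.34 in Venus-positive cells, against 0.21 and 0.25 in Venus-negative cells, a difference of -0.52 ± 0.10 (adjusted p = 0.102). The fractions of both genes were separated, with gaps between replicates no larger than 0.30. Mmp15 (MT2-MMP) and the GPI-anchored Mmp17 (MT4-MMP) had positive differences of 0.75 ± 0.40 and 0.49 ± 0.31, and both overlapped. Over all 7 tested MMPs, 0 had a higher and 3 a lower level at an unadjusted p under 0.05, beside 12.3% and 11.4% of all features, and the median difference was -0.37.

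Of the 8 tested ADAMs grouped as carrying the zinc-binding motif, 7 had positive differences, with a median of 0.27 over the group. However, Adam33 turned to -0.0011 with normexp, and Adam8 and Adam9 turned with 1 array left out. Positive differences made up 64.3% of the 42 tested genes and 50.4% of all features. Adam19 (meltrin beta, chromosome 11), which sheds neuregulin and is needed in heart development, was the exception. It had 2.63 and 2.61 in Venus-positive cells, against 3.68 and 3.47 in Venus-negative cells. The Venus-positive arrays differed by 0.02 and both lay below the Venus-negative ones, with a difference of -0.95 ± 0.12, or 1.94-fold (adjusted p = 0.0571). Adam19 passed the threshold with normexp, with a signal-dependent variance prior and with only probes well above background on all 4 arrays. Over all alternatives that kept the 4 arrays its adjusted p ranged from 0.0156 to 0.177.

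Adam15 (metargidin, chromosome 3), an ADAM of endothelial cells that binds integrins, had 5.55 and 6.26 in Venus-positive cells, against 4.33 and 5.17 in Venus-negative cells. It was higher on both Venus-positive arrays, and replicate 2 was above replicate 1 in both fractions. The log2 difference was 1.16 ± 0.41, or 2.23-fold (adjusted p = 0.211). Adam10 (chromosome 9), the sheddase that starts Notch processing, had 3.38 and 3.61 in Venus-positive cells, against 3.001 and 3.09 in Venus-negative cells. Its fractions did not overlap, with a difference of 0.45 ± 0.13, or 1.36-fold (adjusted p = 0.159). Adam17 (TACE, chromosome 12), which releases TNF and EGF receptor ligands, had -2.47 and -2.57 in Venus-positive cells, against -2.78 and -2.96 in Venus-negative cells. It was separated by 0.35 ± 0.12 (1.28-fold, adjusted p = 0.200), and its second probe differed by 0.28. The other 4 of the class, Adam12, Adam8, Adam33 and Adam9, had differences of 0.40, 0.19, 0.11 and 0.08.

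Among the ADAMs grouped as lacking the zinc-binding motif, Adam23, Adam22 and Adam11 are neuronal adhesion proteins that bind LGI proteins. Adam23 had 1.17 and 0.31 in Venus-positive cells, against 1.84 and 1.20 in Venus-negative cells, a difference of -0.78 ± 0.40 (adjusted p = 0.332). The fractions of Adam23 were separated by less than the gap between replicates. Adam22, Adam11 and Adam32 differed by 0.21, 0.05 and 0.03. The 2 probes of Adam11 disagreed. The brighter differed by 0.05 ± 0.15, and the dimmer, which matches another transcript accession, had -3.48 and -2.96 in Venus-positive cells, against -1.82 and -1.65 in Venus-negative cells. The dimmer probe's difference was -1.49 ± 0.22 (adjusted p = 0.0638 over all probes). Of the other ADAMs, mostly known from the testis, Adam26b had the largest difference, 0.55 ± 0.23 (adjusted p = 0.270). Adam6b was not well above background in Venus-negative cells, where its own dim signal served as the bound. Against that bound it was 1.32-fold higher in Venus-positive cells (adjusted p = 0.253), and its sign turned with normexp (-0.03). Adam1a, Adam4 and Adam5 differed by 0.18, 0.01 and -0.23, and Adam4 was well above background only on the Venus-positive arrays.

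The ADAMTS proteases divided by sign, with 7 positive and 6 negative differences, of which Adamts7 turned to -0.03 with normexp. The signs of Adamts2, Adamts5, Adamts10, Adamts14 and Adamts17 turned with 1 array left out, and that of Adamts17 also with the mean over probes (-0.11). Adamts1, Adamts4, Adamts5, Adamts8, Adamts9 and Adamts15 are known as proteoglycanases, several of them cutting versican or aggrecan. Adamts4 (aggrecanase-1, chromosome 1) had -1.23 and -0.85 in Venus-positive cells, against -2.30 and -2.25 in Venus-negative cells. Both Venus-positive arrays were higher, by 1.23 ± 0.17 on the log2 scale or 2.34-fold (adjusted p = 0.0618). Adamts15 (chromosome 9) had -3.58 and -3.96 in Venus-positive cells, against -2.25 and -2.50 in Venus-negative cells. It was lower on both Venus-positive arrays, with a difference of -1.39 ± 0.19, or 2.63-fold (adjusted p = 0.0629), and of -0.68 with normexp. Each of these genes passed with normexp and with the signal-dependent prior, and Adamts15 also with median centring. In alternatives that kept the 4 arrays, the adjusted p ranged from 0.0327 to 0.181 for Adamts4 and from 0.0324 to 0.183 for Adamts15.

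Adamts1 (chromosome 16) had 2.54 and 2.99 in Venus-positive cells, against 2.06 and 2.09 in Venus-negative cells, a difference of 0.69 ± 0.19 (adjusted p = 0.149). Adamts9 (chromosome 6) had 1.13 and 1.37 in Venus-positive cells, against 0.78 and 0.55 in Venus-negative cells, a difference of 0.59 ± 0.15 (adjusted p = 0.143). Both genes were separated, with the Venus-positive arrays above. Adamts5 and Adamts8 overlapped, with differences of -0.22 ± 0.37 and -0.54 ± 0.41, and the second probe of Adamts8 differed by -0.02. Adamts1 (0.69) lies beside Adamts5 (-0.22) on chromosome 16, with opposite signs, and Adamts15 (-1.39) beside Adamts8 (-0.54) on chromosome 9, both negative.

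Adamts2, Adamts3 and Adamts14 are the procollagen N-proteinases, and Adamts3 also activates the lymphatic growth factor VEGF-C. Adamts3 (chromosome 5) had -4.36 and -4.38 in Venus-positive cells, against -3.53 and -3.02 in Venus-negative cells. Both Venus-positive arrays were lower, with a difference of -1.096 ± 0.21, or 2.14-fold (adjusted p = 0.0969), and of -0.47 with normexp. Adamts2 overlapped between the fractions, with a difference of -0.55 ± 0.66 and replicates up to 1.49 apart. Leaving out Venus-negative replicate 1 gave -1.30, and leaving out replicate 2 of that fraction gave 0.19. Adamts14 differed by 0.13.

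Adamts18 (chromosome 8) was well above background only on the Venus-negative arrays, with -5.58 and -5.03 in Venus-positive cells, against -3.64 and -4.14 in Venus-negative cells. Against a bound for the dim arrays, its level in Venus-positive cells was 2.21-fold lower. The fitted difference was -1.42 ± 0.28 (adjusted p = 0.103), and -0.39 with normexp. A bound of this kind sets each dim array at the lowest signal of a probe well above background, or at the probe's own signal where that is higher. It leaves aside the spread between replicates and the choice of background correction. Adamts7, which cleaves the cartilage matrix protein COMP, was the reverse, well above background only in Venus-positive cells. Against its bound it was 1.35-fold higher there (adjusted p = 0.420 for the fitted difference). Its 2 Venus-negative arrays lay 1.37 apart. The fitted difference was 0.79 ± 0.51, and it was 1.48 when the first of these arrays was left out, 0.11 when the second was, and -0.03 with normexp. Adamts10 and Adamts17 differed by 0.16 and 0.20, and the second probe of Adamts17 by -0.43.

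Adamtsl2 (chromosome 2), which binds fibrillin-1 and the latent TGF-beta binding protein LTBP1 and has no protease domain, had 0.47 and 0.31 in Venus-positive cells, against -0.51 and -0.39 in Venus-negative cells. The replicates were at most 0.17 apart and the fractions separated, with a difference of 0.84 ± 0.12, or 1.79-fold (adjusted p = 0.0658). It passed with normexp, median centring and the signal-dependent prior, and its adjusted p ranged from 0.0336 to 0.193 over the alternatives with all 4 arrays. Adamtsl4, another fibrillin-associated protein, differed by 0.01.

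**Figure D4:**
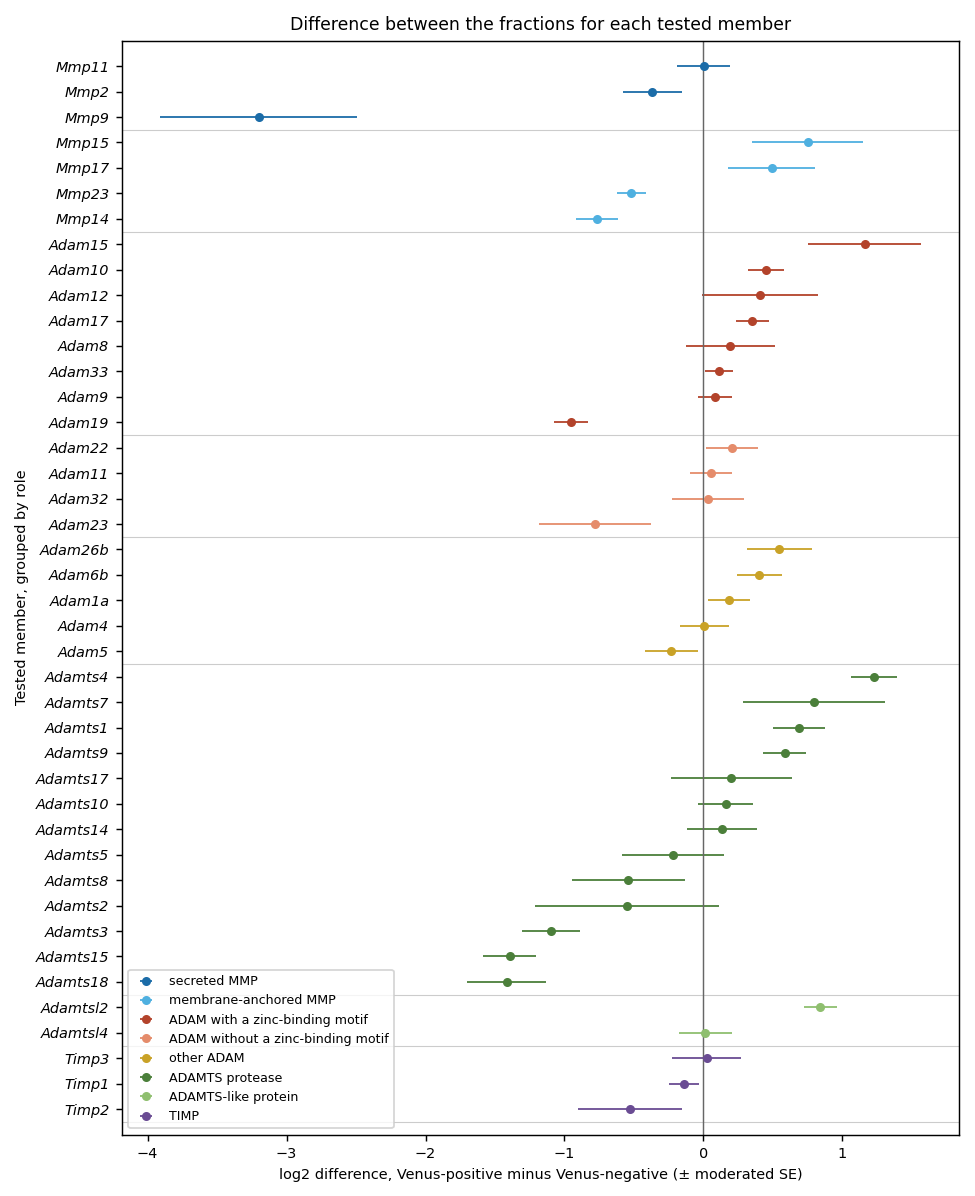
log2 difference, Venus-positive minus Venus-negative, with moderated SE as bars, for the 42 tested genes grouped by role. Mmp9 lies farthest left at -3.20 and Adamts4 farthest right at 1.23.

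None of the 3 tested inhibitors passed the threshold. Timp1 (X chromosome), a secreted inhibitor of most MMPs, had 2.99 and 2.87 in Venus-positive cells, against 3.02 and 3.12 in Venus-negative cells. The Venus-positive arrays were both lower, with a difference of -0.14 ± 0.11, or 1.104-fold (adjusted p = 0.496). Timp2 (chromosome 11), the inhibitor that also bridges Mmp14 and pro-Mmp2, had 4.55 and 5.12 in Venus-positive cells, against 4.96 and 5.77 in Venus-negative cells. These overlapped, with a difference of -0.53 ± 0.37 (adjusted p = 0.459). Its second, dimmer probe had 1.78 and 1.88 in Venus-positive cells, against 2.20 and 2.58 in Venus-negative cells, a difference of -0.56 without overlap (adjusted p = 0.168 over all probes). Timp3 (chromosome 10), the matrix-bound inhibitor that also blocks Adam17 and several ADAMTS proteases, had 4.59 and 4.75 in Venus-positive cells, against 4.34 and 4.96 in Venus-negative cells. Both Venus-positive values of Timp3 lay between the Venus-negative ones, and the difference was 0.02 ± 0.25 (adjusted p = 0.968). Timp4 was well above background on no array.

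**Figure D5:**
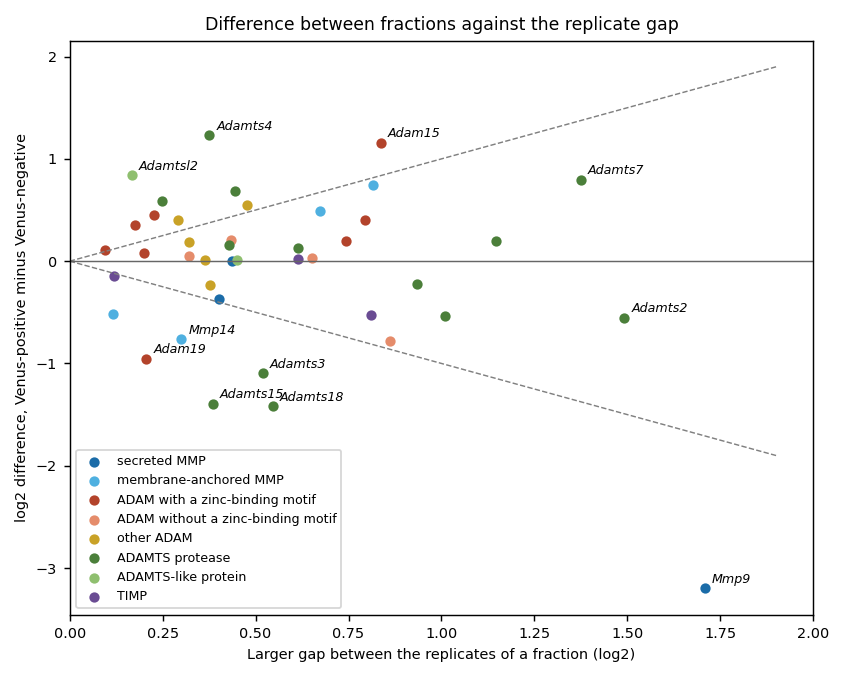
log2 difference, Venus-positive minus Venus-negative (vertical axis), against the larger gap between the replicates of a fraction (horizontal axis, log2) for the 42 tested genes, with dashed lines where the difference equals the gap. In all 18 genes lie outside the lines, and Mmp9 combines the largest difference, -3.20, with the largest gap, 1.71.

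The spread between replicates was wider for these genes than for the array as a whole. The median gap between Venus-positive replicates was 0.37 over the tested genes and 0.16 over all features, and between Venus-negative replicates 0.31 and 0.18. Adam19, Adamtsl2, Adamts4 and Adamts15 combined a difference of 0.84 or more in size with a gap of at most 0.38. These limits were read from the genes' own values, and the share of all features within them was not counted.

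The partners of these proteases comprised 104 genes in 4 lists, of which 87 were tested. Of these 1 passed the threshold as higher and 3 as lower in Venus-positive cells, beside 0.777% and 1.36% of all features. With any of the 4 arrays left out, or with dim probes kept in the fit, limma called 0 features of the whole array and these calls were lost. Among 24 tested activators and regulators, Lrp1, the endocytic receptor that clears MMPs, ADAMTSs and TIMPs, was lower. It had 0.85 and 0.67 in Venus-positive cells, against 2.24 and 2.12 in Venus-negative cells, a difference of -1.42 ± 0.12 (adjusted p = 0.0386). Pcsk5, a proprotein convertase, differed by -1.54 ± 0.24 (adjusted p = 0.0737), and Plat, the tissue plasminogen activator, by 1.27 ± 0.35 (adjusted p = 0.151). Tfpi2, an inhibitor of plasmin, was dim in Venus-negative cells and, against the bound for dim arrays, 1.94-fold higher in Venus-positive cells. The fitted difference of Tfpi2 was 1.45 ± 0.42 (adjusted p = 0.163). Plasminogen (Plg) and urokinase (Plau) were among the 7 untested genes of the list, whose median difference was 0.10.

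Of 9 tested astacin and neprilysin proteases and their cofactors, Pcolce2, which enhances procollagen C-proteinase, was lower in Venus-positive cells. It had -2.26 and -2.76 in Venus-positive cells, against 0.56 and 0.28 in Venus-negative cells, a difference of -2.93 ± 0.23, or 7.63-fold (adjusted p = 0.0354). Tll1, a tolloid-like procollagen C-proteinase, and Ece1, the endothelin-converting enzyme, differed by -0.87 and 0.75, and Mep1b (meprin beta) by 0.72, none past the threshold. None of 19 tested matrix substrates passed, with 3 higher and 3 lower at an unadjusted p under 0.05 (15.8% each), beside 12.3% and 11.4% of all features. Among the listed proteoglycans, 2 that ADAMTS proteases cut had negative differences, -2.07 ± 0.38 for aggrecan (Acan, adjusted p = 0.0927) and -1.47 ± 0.26 for versican (Vcan, adjusted p = 0.0860). Brevican (Bcan), neurocan (Ncan) and decorin (Dcn) were not tested. Perlecan (Hspg2) differed by 0.48 ± 0.12 (adjusted p = 0.138) and biglycan (Bgn) by -0.07 ± 0.11. Over the matrix list, 3 substrates were higher and 3 lower by a log2 difference of at least 1 (15.8% each), beside 3.77% and 4.26% of all features. The lowest adjusted p of the list was that of Fbn2, 0.0565, with a difference of 1.40 ± 0.17. Periostin (Postn) was dim in Venus-negative cells and, against the bound for dim arrays, 2.14-fold higher in Venus-positive cells. The fitted difference of Postn was 1.61 ± 0.65 (adjusted p = 0.251).

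Among 35 tested substrates of shedding, 1 rose and 1 fell. The rise of Tek was also lost with quantile normalization. Tek, the angiopoietin receptor of endothelial cells, had 2.36 and 2.67 in Venus-positive cells, against 0.89 and 1.09 in Venus-negative cells, a difference of 1.53 ± 0.17 (adjusted p = 0.0478). L1cam, an adhesion molecule shed by Adam10, had -3.66 and -3.90 in Venus-positive cells, against -1.22 and -1.62 in Venus-negative cells, a difference of -2.36 ± 0.19 (adjusted p = 0.0367). The Notch ligand Dll1 differed by -1.68 ± 0.23 (adjusted p = 0.0618). Cdh5 and Tgfa, a cadherin of endothelial junctions and an EGF receptor ligand released by Adam17, both differed by 1.56 (adjusted p = 0.148 and 0.100). At an unadjusted p under 0.05, 10 substrates were higher (28.6%) and 6 lower (17.1%), beside 12.3% and 11.4% of all features, and the list's median difference was 0.20. Of the 10 higher substrates, Tek, Cdh5, Pecam1 and Tie1 are also endothelial markers, whose summed signal was higher in Venus-positive cells as given above. Kdr, the gene of the sorted receptor, is also among the 10.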

How the data were processed

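Each deposited scanner table holds intensity values of 62976 spots, background-subtracted and spatially detrended in Agilent Feature Extraction (version 10.10.1.1), per the file headers. The authors also deposited intensity values that equal this signal multiplied by a constant for each array; how these were set is not given in the sources used here. Labelling used Cy3 and a low-input kit, per the labels' protocols.

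Control spots and 152 to 196 outlier spots per array were left out, spots of a probe averaged, and log2 signals centred on each array's 75th percentile. Accessions gave symbols through RefSeq (GRCm38.p6): 27235 of 55681 probes had 1 symbol and 28446 had none. Mmp27 and Adamtsl5 matched no probe. A gene was represented by its brightest probe and tested where well above background on both arrays of a fraction. The fractions were fitted with limma 3.58.1 in R 4.3.3 (with the package data.table, version 1.17.8), leaving 13923 genes and 9622 unnamed probes, with 2 residual and 1.8 prior degrees of freedom. The script was tested on simulated data.

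The members and lists were chosen with earlier results of these data known. Full values are given for called members, the TIMPs, Mmp2, Mmp9, Mmp14, Adam10, Adam17 and members with a log2 difference of at least 1 in size. For each partner list, called genes and up to 3 others with the largest differences are named. Fbn2, with the lowest adjusted p of the matrix list, was added after its values were seen. Other members given with all arrays were picked after their values were seen. Alternatives were 14: background correction, 3 scalings, 2 filters, a variance prior, 2 probe rules, a replicate term and the loss of each array. The mean signal was not in the columns used, so normexp (offset 50) took the median signal and median background.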

Additional observations from a re-analysis of the deposited data

How the results depend on the processing

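In limma's fit 0 members passed in either direction. Normexp and the signal-dependent variance prior each gave 2 higher (Adamts4 and Adamtsl2) and 2 lower (Adam19 and Adamts15). Median centring gave 1 higher (Adamtsl2) and 1 lower (Adamts15), and requiring all 4 arrays above background gave 1 lower (Adam19). The replicate block gave 1 higher (Adam15) and 2 lower (Adamts15 and Mmp9); the labels do not say that the numbers pair the samples, but they coincide with the row of the slide, and same-numbered deviations correlated at 0.41 over features. With each array left out in turn the members' counts were 0 to 0. The partner genes, with 1 higher and 3 lower, had 7 and 8 with normexp, 4 and 5 with median centring, 10 and 9 with the prior and 7 and 5 with the replicate block. They had 0 higher with quantile normalization, 2 higher with all 4 arrays required, 0 and 0 with no filter, and 0 to 0 with an array left out. Over all features, calls numbered 591 higher and 694 lower with normexp, 387 and 420 with median centring, 730 and 920 with the prior, 390 and 545 with the replicate block, and 0 with no filter or an array left out. Hoxb6 passed with normexp (0.98) and the prior (1.01), and Kdr with the prior (0.44). The members' median lay between -0.17 without a filter and 0.14 with median centring, and between -0.0048 and 0.12 with an array left out.

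Signs reversed with normexp for Adam22 (-0.0565), Adam32 (-0.0887), Adam33 (-0.0011), Adam4 (-0.0905), Adam6b (-0.0279), Adamts7 (-0.0337), Adamtsl4 (-0.0761) and Mmp11 (-0.0292). They also did for Mmp11 with quantile normalization (-0.0477) and the authors' scaling (-0.0049), and for Adam11 (-0.72) and Adamts17 (-0.11) with the mean over probes. With an array left out, the ranges that crossed 0 were -0.11 to 0.21 for Adam11, -0.0113 to 0.42 for Adam22, -0.29 to 0.36 for Adam32 and -0.18 to 0.19 for Adam4. They were -0.18 to 0.57 for Adam8, -0.0201 to 0.18 for Adam9, -0.0529 to 0.37 for Adamts10, -0.17 to 0.44 for Adamts14 and -0.37 to 0.77 for Adamts17. They were -1.30 to 0.19 for Adamts2, -0.69 to 0.24 for Adamts5, -0.21 to 0.24 for Adamtsl4, -0.22 to 0.22 for Mmp11 and -0.28 to 0.33 for Timp3. With fewer arrays the fit has fewer degrees of freedom; the cause of the other shifts was not tested. Probes near background, those of Adamts18, Adamts7 and Adamts3 among them, limit how far small levels can be read.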
